A study of Homo sapiens with 9 samples.

Results

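LURAP1L, the gene for leucine rich adaptor protein 1 like, was followed through 9 RNA libraries of U-87 cells, an established human glioblastoma line. All transcripts assigned to this gene were taken, which gave 2 of the 159067 RefSeq transcripts in the count table: the curated NM_203403.2 and the predicted model XM_005251443.3. Both were kept by the filter on low counts (on average 10 counts or more per library), which left 609 genes for testing. LURAP1L was chosen by its measured counts, which were higher under treatment than in controls, so its size of rise, its order over doses and the ratio of its transcripts are given as descriptions, without p-values.

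Cells were left untreated (control, 3 libraries) or treated for 24 h with evernic acid (EA), a lichen metabolite, with temozolomide (TMZ), the DNA alkylating drug used against glioblastoma, or with both. Each treatment had 1 library in these files: EA at 30 µM (EA30), EA at 45 µM (EA45), EA at 35 µM with TMZ at 320 µM (EA35TMZ320), EA at 20 µM with TMZ at 380 µM (EA20TMZ380), EA at 20 µM with TMZ at 580 µM (EA20TMZ580) and TMZ at 600 µM (TMZ600). The labels name no vehicle for the controls and do not say whether these came from separate cultures, so the spread between controls may be technical. All groups are the same cell line, and the files used here hold a single library for each treatment.

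LURAP1L belongs to a small family of leucine-rich adaptor proteins. Its better studied paralog LURAP1 links the MRCK kinases, which act downstream of CDC42, to the unconventional myosin MYO18A in contractile actomyosin bundles, and has also been described as an activator of NF-kB signalling. Less is known of LURAP1L itself.

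On GRCh38, RefSeq places LURAP1L on the plus strand of chromosome 9, from 12775020 to 12823060, a span of 48041 bases. The GENCODE v29 model of its coding transcript has 2 exons, at 12775021 to 12776027 and at 12821386 to 12822131, separated by an intron of 45358 bases. Its coding sequence of 684 bases, or 228 codons, is split into 312 bases in the first exon and 372 in the last. A long non-coding RNA, LURAP1L-AS1, lies on the minus strand from 12699999 to 12814389, and its span covers 39370 bases of LURAP1L. In GENCODE the genes share 0 exon bases, although 2 exons of LURAP1L-AS1 lie inside the LURAP1L span.

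The 250 bases before the annotated start of LURAP1L, taken from RefSeq on GRCh38.p14 (chr9:12774770-12775019, plus strand), are shown as the sequence at the start of the gene. Whether XM_005251443.3 begins there was not examined here. Capitals mark matches to searched motifs.
LURAP1L upstream: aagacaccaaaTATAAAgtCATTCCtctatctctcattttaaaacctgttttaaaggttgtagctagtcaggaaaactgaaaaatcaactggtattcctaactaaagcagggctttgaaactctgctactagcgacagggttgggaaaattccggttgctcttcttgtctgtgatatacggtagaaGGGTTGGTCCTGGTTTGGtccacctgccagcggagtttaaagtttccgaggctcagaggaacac
Of these bases, 42.8% were G or C, and 17.8% of 35116 RefSeq promoters had a lower share over the same length. The window held 5 CpG dinucleotides, against a median of 11 over all promoters. Both strands were searched for 9 motifs. A match to the letters of the TATA box motif, TATAAA, was found at position -239 from the start, and 10.7% of promoters held these letters. The TEAD motif GGAATG was found as its reverse complement CATTCC at position -231, and 11.9% of promoters held this motif. A loose NF-kB pattern (GGG and CC with 5 free bases between them) matched at -64 and overlapped a loose CArG pattern (CC and GG with 6 free bases between them) at -56, patterns that were present in 54.4% and 73.7% of promoters. The AP-1 site TGACTCA, the CCAAT box, the Sp1 site GGGCGG, the E-box CACGTG and the antioxidant response element (TGAC and GC with 3 free bases between them) had no match in this window. In this order they occurred in 4.20%, 32.0%, 42.6%, 6.34% and 10.9% of promoters. These matches describe letters in a sequence, and binding was not measured.

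Libraries were shallow. Total counts ranged from 259753 to 285248 in controls and from 213566 to 490235 in treated cells, and only 5850 transcripts had at least 1 count. Mitochondrial transcripts took 48.4 to 49.1% of counts in controls and 51.7 to 58.7% in treated cells, so these ranges did not overlap. Of 10 markers of glioma cells and astrocytes, 8 were listed at 0, including GFAP and VIM, while NES (nestin, an intermediate filament of neural progenitors) was counted in every library. ACTB, which every cell uses, was also listed at 0, so a 0 in this table is not read as absence of expression, and the 6 markers of other cell types, all listed at 0, are no check either.

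LURAP1L was higher in every treated library than in every control. The 3 controls had 73, 64 and 58 counts, and the treated libraries had 367 (EA30), 660 (EA45), 520 (EA35TMZ320), 437 (EA20TMZ380), 271 (EA20TMZ580) and 209 (TMZ600). As CPM (counts scaled to a common library size after TMM normalisation, which corrects for differences in composition), the controls stood at 249, 227 and 186, with a mean of 221 ± 32.1 (SD, n = 3). All 6 treated libraries lay above all 3 controls, as they did for 49 of the 609 genes tested, LURAP1L included (8.05%), while for 65 genes (10.7%) all 6 lay below. In RNA from a whole culture, more expressing cells and more RNA per cell cannot be told apart.

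Treated libraries spanned a wide range. TMZ600 had the lowest level, 608 CPM (95% exact Poisson interval 528 to 696). EA30 had 833 CPM (750 to 923) and EA20TMZ580 861 CPM (762 to 970). Even the lowest treated level therefore lay above the highest control. EA20TMZ380 reached 1332 CPM (1210 to 1463), EA45 2200 CPM (2035 to 2374) and EA35TMZ320 2493 CPM (2283 to 2717). The intervals cover counting error only, and those of EA30 and EA20TMZ580 overlapped, as did those of EA45 and EA35TMZ320.

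**Figure D1:**
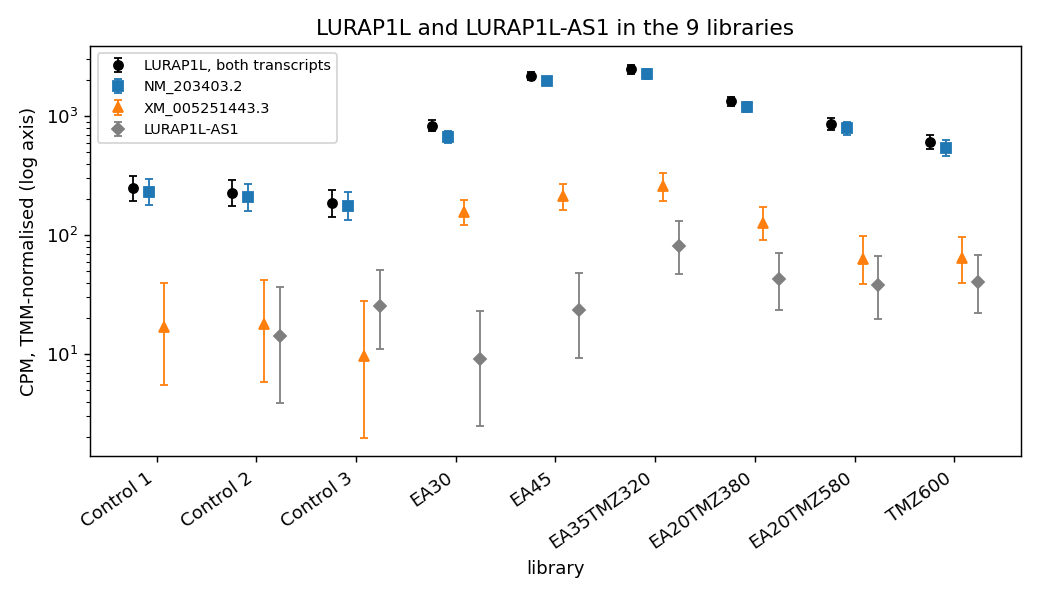
Level of LURAP1L, of its 2 transcripts and of LURAP1L-AS1 in each of the 9 libraries, in TMM-normalised CPM on a log axis, with 95% exact Poisson intervals for counting error. LURAP1L stands between 186 and 249 CPM in the 3 controls and between 608 and 2493 CPM in the 6 treated libraries; LURAP1L-AS1, at 0 in control 1, is not drawn there.

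Against the mean of the controls, edgeR fitted a log2 fold change of 1.92 (SE 0.19, 95% interval 1.53 to 2.30) for EA30, or 3.78-fold. For EA45 the log2 fold change was 3.32 (SE 0.18, 2.95 to 3.68), or 9.96-fold. Between EA alone at 30 and at 45 µM the log2 difference was 1.40 (0.96 to 1.84). EA35TMZ320 gave the largest of the 6 values, 3.50 (SE 0.18, 3.13 to 3.86), or 11.3-fold. EA20TMZ380 followed with 2.59 (SE 0.19, 2.22 to 2.97), or 6.03-fold. EA20TMZ580, at 1.96 (SE 0.20, 1.57 to 2.36, 3.90-fold), was close to EA30, and TMZ600 had the weakest rise, at 1.46 (SE 0.20, 1.05 to 1.87, 2.76-fold). With all 6 treated libraries taken as 1 group, the log2 fold change was 2.65 (SE 0.46). The errors of the single treatments rest on the spread of the 3 controls, shared across genes, and assume that a single treated library varies as the controls do. The error of the group fit also holds the spread among the 6 treated libraries.

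Among the 609 genes, LURAP1L held rank 3 by rise in EA45 and EA20TMZ380, rank 4 in EA30, EA35TMZ320 and EA20TMZ580, and rank 8 in TMZ600. The share of genes called higher (adjusted p under 0.05, edgeR quasi-likelihood test) differed among treatments, from 4.27% for TMZ600 and 8.87% for EA30 to 11.8% for EA20TMZ380, 12.5% for EA20TMZ580, 19.4% for EA35TMZ320 and 19.9% for EA45. With mitochondrial transcripts left out, the log2 fold changes of LURAP1L ran from 1.47 in TMZ600 to 3.59 in EA35TMZ320. With library totals in place of TMM, the median log2 fold change of all genes was -0.22 to -0.40 in the 5 treatments that held EA, against -0.025 to -0.13 with TMM, and the rise of LURAP1L was smaller, for example 1.64 in EA30 and 2.31 in EA20TMZ380.

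The order of levels was TMZ600, EA30, EA20TMZ580, EA20TMZ380, EA45 and EA35TMZ320, from low to high. Neighbours in this order were compared on the log2 scale. EA30 exceeded TMZ600 by 0.45, with an interval that included 0 (-0.01 to 0.92). The difference of EA30 from EA20TMZ580 was -0.05 (-0.50 to 0.41). The difference of EA20TMZ580 from EA20TMZ380 was -0.63 (-1.08 to -0.18), and that of EA45 from EA20TMZ380 was 0.72 (0.29 to 1.16). EA35TMZ320 differed from EA45 by 0.18 (-0.25 to 0.61), a difference within the error. Each side of these differences is a single library whose spread is taken from the controls, so the intervals describe their size and are no test of the order, and a difference whose interval includes 0 is not shown to be absent.

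The combinations allow the drugs to be set side by side. At the same EA dose of 20 µM, the library with more TMZ (580 against 380 µM) had the lower LURAP1L level. At nearly the same TMZ dose, adding 20 µM EA (EA20TMZ580 against TMZ600) went with a log2 difference of 0.50 (0.03 to 0.97), but the TMZ doses were not equal. With library totals in place of TMM these libraries lay closer together, with log2 fold changes of 1.77 (EA20TMZ580) and 1.52 (TMZ600). EA35TMZ320 exceeded EA30 by 1.58 (1.13 to 2.03), with both EA and TMZ higher.

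A model in which both doses add on the log2 scale was fitted to the 9 libraries. It gave LURAP1L a rise of 0.73 per 10 µM EA (SE 0.07, 95% interval 0.58 to 0.87) and of 0.21 per 100 µM TMZ (SE 0.05, 0.12 to 0.31). By size of the term, LURAP1L held rank 5 of 609 for EA and rank 9 for TMZ. Adding the product of both doses changed little, and this term was -0.01 (SE 0.03, -0.08 to 0.06). Observed minus fitted log2 values were -0.26 for EA30, 0.05 for EA45, 0.28 for EA35TMZ320, 0.34 for EA20TMZ380 and 0.19 for TMZ600. EA20TMZ580 lay farthest from the model, at -0.71 below a fitted value of 2.68. For the step from 380 to 580 µM TMZ the model gave 0.42, whereas the observed difference was -0.63. With 1 library per dose, a departure from the model and the variation of a single library cannot be told apart. The fitted sizes also depended on the dose scale. With log2(dose + 1) terms the change at 45 µM EA was 2.51, against 3.26 with linear terms. At 600 µM TMZ it was 0.75, against 1.27.

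**Figure D2:**
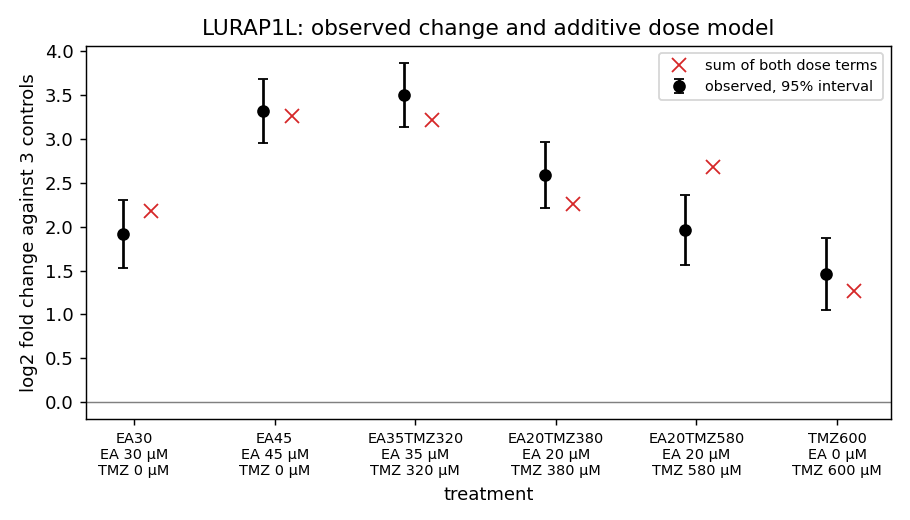
Log2 fold change of LURAP1L against the 3 controls for each treatment (points, with 95% intervals from edgeR) beside the sum of the EA and TMZ dose terms (crosses). The cross lies outside the interval for EA20TMZ580 alone, where 1.96 was observed and 2.68 fitted.

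Most LURAP1L counts fell on NM_203403.2. This transcript had 68, 59 and 55 counts in controls, and 297 (EA30), 596 (EA45), 467 (EA35TMZ320), 395 (EA20TMZ380), 251 (EA20TMZ580) and 187 (TMZ600) in treated cells. In CPM, the controls averaged 207 ± 28.0 (SD, n = 3) and the treated libraries ranged from 542 to 2263. XM_005251443.3 had 5, 5 and 3 counts in controls, and 70, 64, 53, 42, 20 and 22 in the treated libraries in the same order. Its CPM averaged 14.9 ± 4.53 in controls and ranged from 63.5 to 257 under treatment. The control level of XM_005251443.3 rests on 13 counts in all. This transcript passed the filter on low counts only through the treated libraries, so the filter itself favoured a higher level there.

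The fitted changes of the transcripts put the treatments in different orders. For NM_203403.2 the log2 fold changes were 1.70 (EA30), 3.26 (EA45), 3.45 (EA35TMZ320), 2.54 (EA20TMZ380), 1.95 (EA20TMZ580) and 1.39 (TMZ600), with SE from 0.18 to 0.21. For XM_005251443.3 they were 3.38, 3.81, 4.09, 3.08, 2.08 and 2.08 in the same order, with wider SE from 0.50 to 0.58. EA30 therefore ranked next to last for the main transcript and behind only EA35TMZ320 and EA45 for the predicted one. The neighbouring ranks lay within their errors, as EA30 differed from EA20TMZ580 by -0.25 (-0.72 to 0.21) for NM_203403.2, and EA20TMZ380 from EA30 by -0.30 (-1.43 to 0.82) for XM_005251443.3. Between EA30 and EA45, NM_203403.2 differed by 1.57 (1.12 to 2.02), while XM_005251443.3 differed by 0.43 with an interval from -0.67 to 1.54. The EA dose terms were close, at 0.71 (SE 0.07) and 0.84 (SE 0.12) per 10 µM, as were the TMZ terms, at 0.21 (SE 0.05) and 0.20 (SE 0.08) per 100 µM.

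As a share of all LURAP1L counts, XM_005251443.3 made up 6.85% (95% Wilson interval 2.96 to 15.1%), 7.81% (3.38 to 17.0%) and 5.17% (1.77 to 14.1%) in controls. EA30 had the highest share, 19.1% (15.4 to 23.4%), with an interval that overlapped those of control 2 and, narrowly, TMZ600. TMZ600 had 10.5% (7.05 to 15.4%), EA35TMZ320 10.2% (7.88 to 13.1%), EA45 9.70% (7.67 to 12.2%) and EA20TMZ380 9.61% (7.19 to 12.7%). These 4 libraries lay close together, each a little above the highest control, with overlapping intervals. EA20TMZ580 had 7.38% (4.83 to 11.1%), inside the range of the controls. Expressed as a ratio, NM_203403.2 had 13.6, 11.8 and 18.3 counts per count of XM_005251443.3 in controls, 4.24 in EA30 and 8.50 to 12.6 in the other treated libraries.

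The mean share was 6.61% ± 1.34 (SD, n = 3) in controls and 11.1% ± 4.07 (n = 6) in treated libraries, a difference of 4.47 percentage points. Without EA30 the difference was 2.87 points, so this 1 library carried much of it. The same difference ran from -12.4 to 8.06 points over the 10 genes with 2 transcripts past the filter on low counts, so that of LURAP1L was not the largest. Pooled over controls the share was 6.67% (3.94 to 11.1%, 13 of 195 counts), and pooled over the 5 treated libraries without EA30 it was 9.59% (8.40 to 10.9%). The intervals cover counting error only and are no test over libraries. They overlapped, although 4 of these 5 libraries lay above the highest control.

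**Figure D3:**
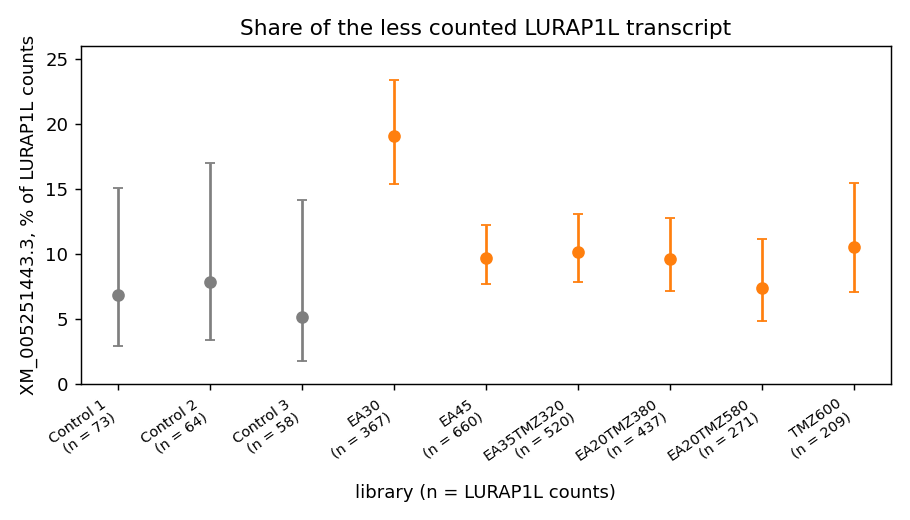
Share of LURAP1L counts that fell on XM_005251443.3 in each library, in percent, with 95% Wilson intervals; n is the number of LURAP1L counts. EA30 stands at 19.1%, and the other 8 libraries lie between 5.17 and 10.5%.

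Counting on both transcripts of a gene was uncommon in this table. Of 5125 genes with 2 listed transcripts, 456 had any count, 412 of them on 1 transcript and 44, LURAP1L included, on both. Genes with 1 listed transcript had a count more often (14.4%) than those with 2 (8.90%) or with 3 or more (10.7%). How reads that fit several transcripts were handled is not given in the sources used here, so whether the summed count holds all reads of LURAP1L was not tested. Which bases separate its transcripts was not examined here.

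LURAP1L-AS1, the antisense gene, was counted only sparsely. It had 0, 4 and 8 counts in controls and 4 (EA30), 7 (EA45), 17 (EA35TMZ320), 14 (EA20TMZ380), 12 (EA20TMZ580) and 14 (TMZ600) in treated libraries, which put it below the filter. The level was 13.3 ± 12.9 CPM (SD, n = 3) in controls and 39.2 ± 24.3 CPM (n = 6) under treatment, and 4 of 6 treated libraries lay above the highest control. The difference did not pass a 2-sided exact permutation test (p = 0.119, where the smallest p possible is 0.0238). In an edgeR fit without the filter the log2 fold change was 1.47 (SE 0.67, adjusted p = 0.458), a fit in which 0.988% of genes were called. By CPM, LURAP1L was highest in EA35TMZ320 (2493), which also had the highest antisense level (81.5 CPM). EA45, the library with the most LURAP1L counts, had 7 antisense counts against 8 in control 3. Whether the counting used strand is not given in the sources used here. In GENCODE this pair shares 0 exon bases. Overlap of the RefSeq exons used for counting was not examined, so a mix of their reads was not tested. The paralog LURAP1 was listed at 0.

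Few genes related to LURAP1L by position or function could be measured. Among 8 neighbours on the short arm of chromosome 9, 4 were listed at 0 and only NFIB, a transcription factor of glial development, had enough counts. It had 60.5 ± 24.6 CPM in controls and 16.7 to 66.9 CPM in treated libraries, and 0 of 6 treatments passed the test. EA45 came closest to the threshold, at -1.83 on the log2 scale (SE 0.76, adjusted p = 0.0518, edgeR). All 6 listed partners of the LURAP1 family, among them MYO18A, CDC42BPA and CDC42, were listed at 0.

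Of 25 actomyosin genes, 19 were listed at 0 and 1 was tested. This was ROCK1, a kinase that raises myosin phosphorylation. Whether reads of its near-identical pseudogene ROCK1P1 enter its counts was not tested, so these counts are uncertain. ROCK1 had log2 fold changes of 1.19 (SE 0.14) in EA30, 0.65 (SE 0.15) in EA45, 1.25 (SE 0.14) in EA20TMZ380 and 1.29 (SE 0.14) in EA20TMZ580. In EA35TMZ320, where LURAP1L was highest, ROCK1 gave -0.09 (SE 0.16), and in TMZ600 it gave 0.30 (SE 0.15). Each of these values rests on 1 treated library. With the 6 treated libraries as 1 group ROCK1 did not pass the edgeR test (0.85, SE 0.30, adjusted p = 0.0897). In that fit 2.79% of genes were called higher and 3.61% lower. Its control level was 1818 ± 91.8 CPM (n = 3). Of 22 NF-kB pathway genes, 17 were listed at 0 and 1 was tested: NFKBIB, an inhibitor that holds NF-kB in the cytoplasm. It passed in 0 of 6 treatments, with 65.3 ± 11.0 CPM in controls and 32.0 to 114 CPM under treatment. For comparison, NES, the only tested marker of glioma cells, fell in 6 of 6 treatments, from 559 ± 40.9 CPM in controls to at most 157 CPM under treatment, with log2 fold changes from -1.83 in TMZ600 (adjusted p = 1.28e-05) to -3.47 in EA45 (1.09e-10), and -2.38 (SE 0.31, adjusted p = 0.00101, edgeR) for the 6 treated libraries as 1 group. The share of genes called lower was 5.58% for TMZ600, 8.7% for EA30, 12.2% for EA20TMZ580, 14.3% for EA20TMZ380, 19.2% for EA45 and 23.6% for EA35TMZ320.

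The genes whose profile was most like that of LURAP1L were ranked by Pearson's r of log2 CPM over the 9 libraries, among 608 other genes. They were NRROS, which binds latent TGF-beta and limits reactive oxygen species, EBLN1, derived from an ancient bornavirus insertion, the transcriptional repressor NFX1, the mitochondrial complex I assembly factor NDUFAF3, and the non-coding RNA LOC105375892, each with r = 0.97. In all 5 the treated libraries lay above the controls, which the choice by likeness to LURAP1L favoured. The same held for 49 of the 609 genes tested (8.05%). EBLN1, for instance, averaged 689 ± 152 CPM in controls and ranged from 1059 in TMZ600 to 2816 in EA45. LOC105375892 averaged 47.3 ± 5.58 CPM in controls and ranged from 86.3 in EA30 to 297 in EA35TMZ320, so its highest library was also that of LURAP1L. NDUFAF3 rests on 7 to 27 counts per library.

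The opposite profile was found for PTGIS (prostacyclin synthase), ZC3H10 (a zinc finger RNA-binding protein) and ANKH (a transporter that controls extracellular pyrophosphate), each with r = -0.97. ANKH averaged 483 ± 41.2 CPM in controls and fell to between 56.7 in EA45 and 218 in EA30. PTGIS averaged 943 ± 116 CPM in controls and ranged from 473 in EA45 to 745 in TMZ600. Over the 6 treated libraries alone r ran from 0.85 (NFX1) to 0.96 (LOC105375892) for the first set and from -0.92 (ZC3H10) to -0.98 (PTGIS) for the second. Of the 5 most alike genes, however, 0 were among the first 5 when the 6 treated libraries alone were ranked. High values were common, as 23 genes had r above 0.9 and 19 had r below -0.9. The 9 points share their depth and controls, and the order of genes with nearly equal r is not firm.

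**Figure D4:**
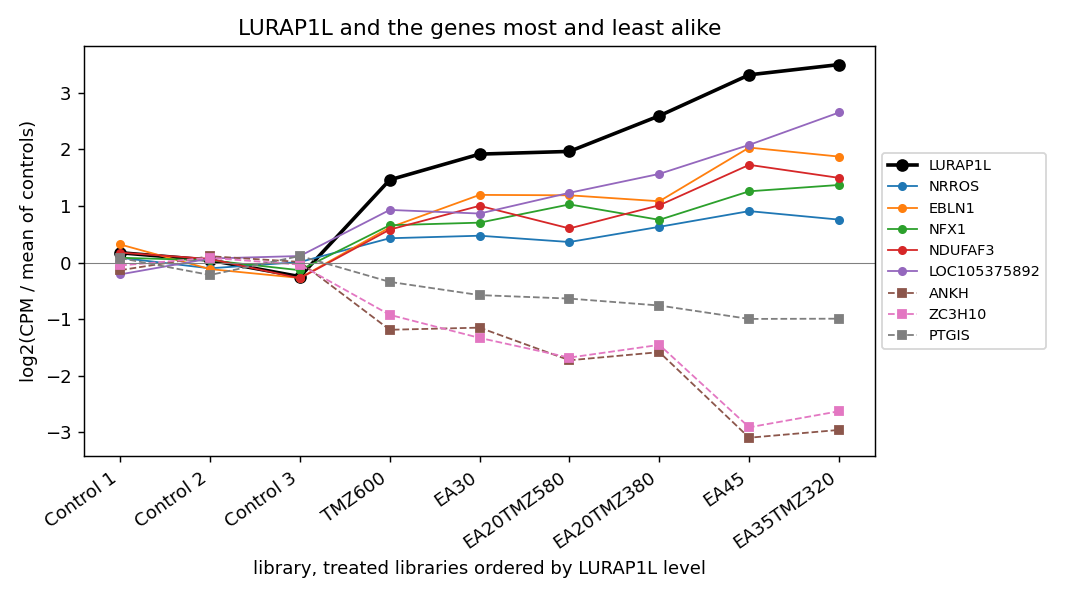
Log2 of CPM over the mean of the controls for LURAP1L (thick line), for the 5 genes most like it (solid lines) and for the 3 least like it (dashed lines), with treated libraries ordered by their LURAP1L level. The solid lines lie above 0 and the dashed lines below 0 in all 6 treated libraries, which the choice of these genes by correlation favoured.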

How the data were processed

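RNA of U-87 cells was sequenced from QuantSeq 3′ end libraries. The authors deposited counts per RefSeq transcript, not normalised; the submitters' processing notes name HISAT2, HTSeq and hg38, without settings. Groups were taken from the sample labels. Transcripts were matched to genes through RefSeq (GRCh38.p14), with version (57755) or without (56301), and 45011, with 4.63% of counts, were not matched and were kept as single features. Counts were summed per gene, and genes with a mean of at least 10 counts were tested with edgeR 4.0.16 (TMM, quasi-likelihood F-test, Benjamini-Hochberg adjustment over 609 genes) in R 4.3.3: each treatment against 3 controls, all treatments as 1 group, and linear terms of both doses. Transcripts were fitted in the same way. CPM intervals are exact Poisson, shares have Wilson intervals, and permutation tests over libraries were exact. The scripts were tested on simulated data.

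The gene, its transcripts and the gene lists were chosen with earlier results of these data known. The genes named were LURAP1L, the 5 genes with the highest and the 3 with the lowest Pearson correlation with it, and the members of each list that passed the filter or had the most counts. A test had been set for the transcript share, and its p is not given because that ratio took part in choosing the gene. Alternatives were other size factors, library totals, nuclear transcripts alone, no filter or a mean of at least 50 counts, DESeq2 1.42.0, limma 3.58.1 (voom), a fold threshold, single transcripts, other dose scales, and leaving out each library.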

Additional observations from a re-analysis of the deposited data

How the results depend on the processing

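The log2 fold changes of LURAP1L kept their sign under all alternatives, and 69 of 78 values moved by less than 1 SD of the controls. Their SE depended on the method. In EA30 it was 0.19 with edgeR, 0.25 with limma-voom and 0.31 with DESeq2. In EA45 it was 0.18, 0.23 and 0.31 in the same order. With library totals in place of TMM the log2 fold changes were 1.64 (EA30), 3.08 (EA45) and 2.31 (EA20TMZ380). NM_203403.2 alone gave 1.70 in EA30. XM_005251443.3 alone gave 3.38 (EA30), 3.81 (EA45), 4.09 (EA35TMZ320), 3.08 (EA20TMZ380) and 2.08 (TMZ600). The fitted change at 45 µM EA was 3.26, 3.13 to 3.38 with any 1 library left out, and 2.51 with log2(dose + 1) terms; at 600 µM TMZ it was 1.27, 1.10 to 1.68 (the highest without EA20TMZ580), and 0.75. The transcript share differed by 2.87 (without EA30) to 5.21 percentage points (without EA20TMZ580).

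The number of genes called was 107 (EA30), 238 (EA45), 262 (EA35TMZ320), 159 (EA20TMZ380), 150 (EA20TMZ580), 60 (TMZ600) and 39 for the 6 treatments as 1 group. DESeq2 called 41, 113, 150, 57, 53, 20 and 89 in the same order. A minimum change of 2-fold in either direction left 53 in EA30, 157 in EA45, 92 in EA20TMZ380, 80 in EA20TMZ580 and 33 in TMZ600. Without the filter on low counts 101 (EA20TMZ380) and 94 (EA20TMZ580) were called. With 1 library left out, EA20TMZ580 had 99 to 164, TMZ600 33 to 78 and the group of 6 treatments 11 (without control 1) to 64 (without TMZ600); without control 2 and control 3 the group had 12 and 14.

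Of the 5 genes most like LURAP1L, 2 were also among the first 5 by Spearman correlation, 0 over the 6 treated libraries alone, and 2 to 5 with 1 library left out (2 without control 3, and 3 without EA20TMZ380 or TMZ600). Changes near 0 turned sign. With library totals NFIB was -0.044 in EA20TMZ580 and NFKBIB -0.21 in EA45. With 1 control left out, NFIB ran from -0.40 (without control 3) to 0.16 (without control 2) in EA20TMZ380, from -0.037 to 0.52 in EA20TMZ580 and from -0.033 to 0.53 in TMZ600, and NFKBIB from -0.093 (without control 2) to 0.14 (without control 1) in EA45. The fall of NFIB in EA45 passed the test with library totals (-2.07), without control 1 (-1.97) and without control 3 (-2.02). The causes were not tested.

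No paired analysis was possible because the treated groups share fewer than 2 replicate numbers with the controls. Low counts limit the transcript ratio, since the predicted transcript had 3 to 5 counts per control.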
